A study of Mus musculus with 7 samples.

Results

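Glycolysis and hypoxia response genes were followed in mouse spleens that had been prepared with the biomaterial sHA-X or with PBS before hepatocytes were placed in them. The set holds 33 of the 22173 genes in the deposited expression table, chosen by symbol with earlier results of these data known. It comprises 19 glycolytic enzymes, 4 glucose or monocarboxylate transporters, 3 regulators of glycolytic flux and 7 other hypoxia response genes. The sHA-X group (4 libraries) came from spleens injected with sHA-X on 4 occasions, and the PBS group (3 libraries) from spleens given PBS instead. Hepatocytes were then injected into the spleen tissue in both groups, and the spleens were taken for RNA 30 days later. Every library therefore comes from a spleen that received hepatocytes, and no untouched spleen or sHA-X spleen without hepatocytes was analysed here. The labels do not say that each library is a separate animal, nor give strain, sex or age. The p-values thus measure only the spread between these libraries, which may be technical.

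Glycolysis splits glucose into pyruvate in the cytosol, and lactate dehydrogenase can turn the pyruvate into lactate, which leaves the cell through monocarboxylate transporters. When oxygen is scarce, the prolyl hydroxylases of the Egln family no longer mark the Hif1a protein for destruction by the Vhl ligase. Hif1a then pairs with Arnt and switches on most glycolytic enzyme genes, Slc2a1, Pdk1, Bnip3 and its own inhibitor Egln3. In the spleen, neutrophils depend heavily on glycolysis, and activated macrophages can raise Hif1a and glycolytic genes with oxygen present. Mature red blood cells have no mitochondria and live on glycolysis alone.

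Of the 33 genes, 32 had a mean of at least 1 FPKM (fragments scaled to gene length and library depth) and entered the test. In sHA-X spleens, 10 of them were higher than in PBS spleens and 0 were lower, at an adjusted p under 0.05 in limma's moderated test on log2(FPKM + 1). The 10 genes make up 31.2% of the 32, beside 9.3% of all 11920 genes tested that were called higher and 5.03% that were called lower. As the set was chosen with earlier results known, no comparison of it with all genes is a test of the set. The 10 genes were the enzymes Hk3, Aldoa, Tpi1, Pgam1, Eno1, Pkm and Ldha, the lactate exporter Slc16a3, and the hypoxia response genes Egln3 and Bnip3. The differences were modest, with mean levels 1.23 to 2.10 times those of PBS spleens. Under another scaling of the libraries the balance of calls over all genes moved, with 1108 higher and 600 lower as deposited, 1002 and 843 with median-of-ratios scaling, 758 and 938 with quantile normalization, and 1265 and 417 with libraries scaled to an equal FPKM sum. Between 9 and 11 of the members were called higher under these scalings, and none lower.

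The sHA-X and PBS libraries did not overlap for 15 members, all of them higher in sHA-X. Across all genes tested, the groups were apart with sHA-X higher for 17.2% and with sHA-X lower for 11.5%. The median log2 change of the 32 members was 0.24, against 0.03 for all genes tested, and 25 members lay above 0 and 7 below. The count depended on which control libraries were kept. Without PBS replicate 1, 3 members remained called, Hk3, Tpi1 and Egln3, while over all genes the calls fell to 488 higher and 228 lower. Without PBS replicate 3, the calls over all genes were 1263 higher and 637 lower. Array quality weights, which count more variable libraries less, were 3.026 for PBS replicate 1, the highest of any library. They were 0.709 and 0.359 for PBS replicates 2 and 3.

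**Figure D1:**
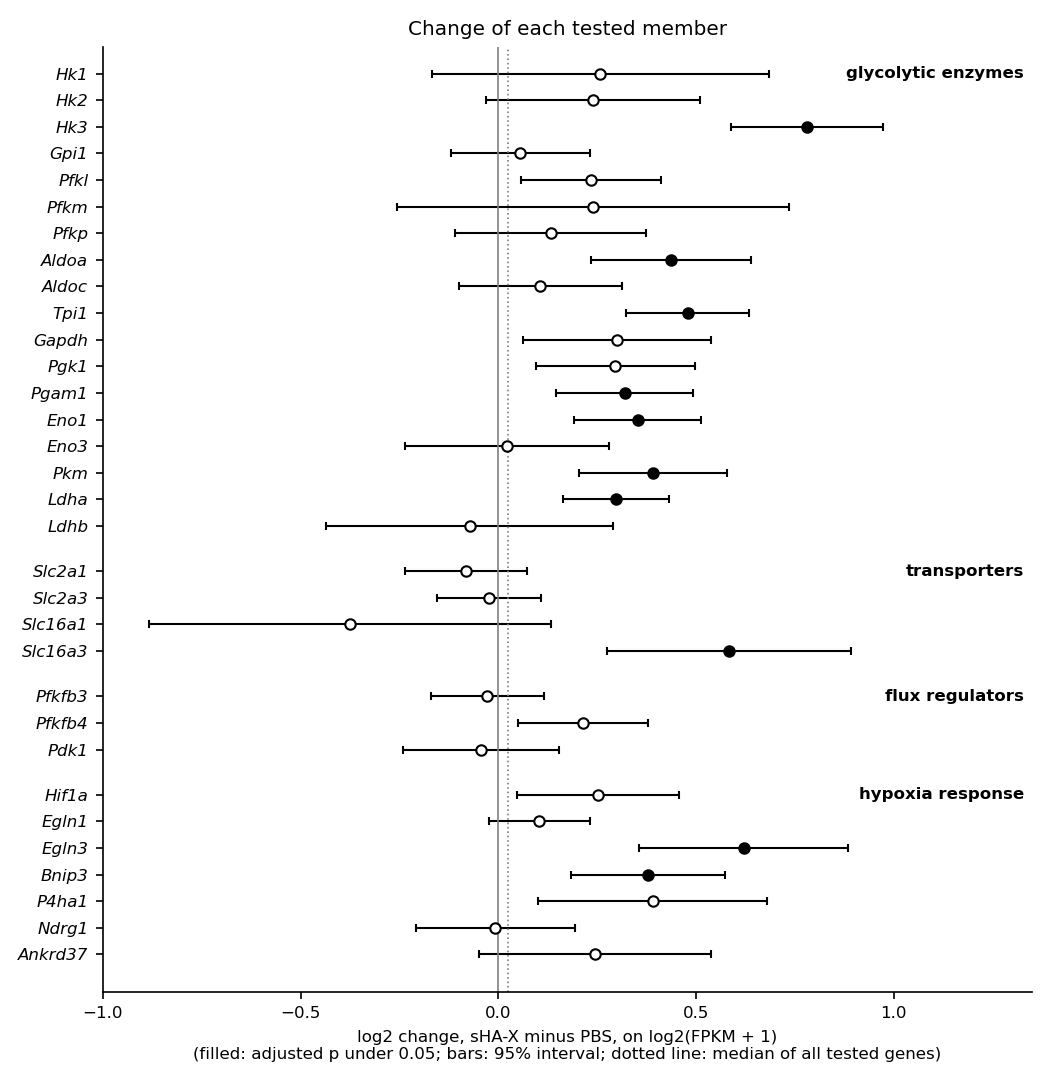
Log2 change (sHA-X minus PBS, on the log2(FPKM + 1) scale) with its 95% interval for the 32 members tested, grouped by role, with filled points for called members, a solid line at 0 and a dotted line at the median of all tested genes. Most glycolytic enzymes lie right of 0, with Hk3 farthest at 0.78, and the 4 transporters and 3 flux regulators have medians of -0.05 and -0.03.

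The libraries held 29543963 to 37141739 reads, as recovered from the steps of the FPKM values, so depth differed by at most 1.26 times. Globin genes held 4.03 to 6.09% of the summed FPKM in sHA-X libraries, and 11.2, 10.3 and 5.56% in PBS replicates 1, 2 and 3. What this share does to the FPKM of other genes was not tested. In bulk tissue, fewer cells of a type and less RNA per cell cannot be told apart, and the cell type markers moved between the groups too. The summed FPKM of 11 red pulp macrophage markers was 3105 to 3301 in sHA-X and 1510 to 1984 in PBS spleens (10 of 11 genes called higher), and that of 7 fibroblast markers 282 to 440 and 103 to 145 (6 of 7 higher). Monocyte and neutrophil markers summed to 3111 to 4607 in sHA-X and 1851 to 2873 in PBS (4 of 10 higher, 1 lower). B cell markers were the other way, at 1193 to 1372 in sHA-X and 1751 to 2095 in PBS (7 of 9 lower), as were platelet markers, at 298 to 375 and 441 to 553 (6 of 7 lower), while 0 of 6 endothelial and 0 of 8 erythroid markers were called. The part of these cells in the results below was not tested. Some libraries held transcripts of other tissues. Skeletal muscle markers reached 236 FPKM in sHA-X replicate 2 and at most 16.5 elsewhere, exocrine pancreas markers 1023 in PBS replicate 2 and at most 35.2 elsewhere, and hepatocyte markers 669 and 686 in sHA-X replicates 3 and 4, against 21.2 or less elsewhere. Defining spleen markers of B cells, T cells and red pulp macrophages were above 0 in every library.

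To show what lies at the start of the called genes, the promoter windows of the 4 called members with the smallest p are given, from 250 bases before to 50 bases after the most upstream start that the RefSeq promoter table lists for the gene (GRCm38.p6). For Ldha and Hk3, the RefSeq gene itself begins further upstream than the start in that table. Each runs 5′ to 3′ on the gene's strand. Capitals mark the core of the hypoxia response element, ACGTG or GCGTG on either strand (CACGT or CACGC when read on the other), and a CACGTG counts as 2 overlapping matches.
Hk3, chr13:55021336-55021635, minus strand: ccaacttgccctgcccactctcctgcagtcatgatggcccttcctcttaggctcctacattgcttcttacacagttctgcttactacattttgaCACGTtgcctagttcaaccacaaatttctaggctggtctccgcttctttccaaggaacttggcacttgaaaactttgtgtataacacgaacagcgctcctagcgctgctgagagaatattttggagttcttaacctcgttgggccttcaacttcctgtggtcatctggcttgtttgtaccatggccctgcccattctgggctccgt
Tpi1, chr6:124814109-124814408, minus strand: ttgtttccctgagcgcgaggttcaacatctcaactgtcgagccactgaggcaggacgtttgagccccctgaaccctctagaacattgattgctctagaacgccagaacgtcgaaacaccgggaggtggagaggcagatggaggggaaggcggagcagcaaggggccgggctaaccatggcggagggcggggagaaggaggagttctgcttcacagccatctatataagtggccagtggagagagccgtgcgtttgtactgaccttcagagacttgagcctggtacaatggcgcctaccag
Egln3, chr12:54203825-54204124, minus strand: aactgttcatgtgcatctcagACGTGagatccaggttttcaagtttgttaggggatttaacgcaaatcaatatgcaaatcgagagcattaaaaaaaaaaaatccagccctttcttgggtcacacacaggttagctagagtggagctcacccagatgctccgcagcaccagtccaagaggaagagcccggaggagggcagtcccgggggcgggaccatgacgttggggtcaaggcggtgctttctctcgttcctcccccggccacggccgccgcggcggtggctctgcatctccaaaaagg
Ldha, chr7:46845554-46845853, plus strand: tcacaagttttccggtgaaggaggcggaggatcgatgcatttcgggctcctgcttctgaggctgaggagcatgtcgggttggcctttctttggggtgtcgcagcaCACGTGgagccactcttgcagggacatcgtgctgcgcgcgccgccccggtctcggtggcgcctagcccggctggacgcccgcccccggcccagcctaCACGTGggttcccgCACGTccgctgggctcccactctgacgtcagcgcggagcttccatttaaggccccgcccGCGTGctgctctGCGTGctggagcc

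The windows differ widely in matches. Ldha, the textbook Hif1a target among the enzymes, had 7 matches, the most of any member, with overlapping pairs at -145 and -144 and at -48 and -47, and single ones at -34, 26 and 38 (first base, from the start site). Hk3 had 1 match at -156 and Egln3 1 at -229, while the Tpi1 window held none. Of the 31 members with a window (Slc2a3 and Ndrg1 had none), 25 (80.6%) held at least 1 match, against 6003 of 9620 tested genes with a window (62.4%) and 11848 of all 27025 (43.8%). For the 19 glycolytic enzymes alone the share was 13 of 19 (68.4%). ACGTG by itself stood in 18 of the 31 members (58.1%) and 8 of the 19 enzymes (42.1%), against 2467 of the 9620 (25.6%). Members called higher held either motif in 7 of 10 windows (70%) and ACGTG in 6 (60%), and the 21 other members, which include the untested Eno2, in 18 (85.7%) and 12 (57.1%). A match describes letters in this window and is not evidence of binding.

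Hexokinases trap glucose in the cell as glucose phosphate, and the form that differed was Hk3, the one most typical of myeloid cells. Hk3 stood at 14.0, 13.2, 14.5 and 15.8 FPKM in the sHA-X libraries and 8.92, 7.75 and 7.25 FPKM in the PBS libraries, both given in replicate order here and throughout. All 4 sHA-X libraries lay above all 3 PBS libraries, and the means were 14.4 ± 1.09 and 7.97 ± 0.858 FPKM (SD, n = 4 and 3, limma adjusted p = 0.00123). The log2 change of 0.78 (SE 0.08, 95% interval 0.59 to 0.97) was the largest of any member with a pseudocount of 1, while with 0.1 Egln3 had 0.99 and Hk3 0.85. Hk3 was called in all 19 alternative settings, with adjusted p between 0.000485 and 0.0266. Hk1, the form used by most cells and by red cells, overlapped between groups at 33.9, 29.2, 36.2 and 28.5 FPKM in sHA-X and 29.1, 32.9 and 19.3 FPKM in PBS (log2 change 0.26, interval -0.17 to 0.68, limma adjusted p = 0.397). Its lowest value was in PBS replicate 3. Hk2, the inducible form and itself a Hif1a target, had 2.93 to 4.58 FPKM in sHA-X and 2.93 to 3.26 FPKM in PBS, and did not pass (limma adjusted p = 0.219).

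The isomerase Gpi1 and the phosphofructokinases, which carry out the committed step, did not pass the test. Gpi1 had 93.4 to 105 FPKM in sHA-X and 89.5 to 107 FPKM in PBS, and the interval of its log2 change ran from -0.12 to 0.23. Pfkl, the liver form, was at 15.2, 13.9, 14.9 and 13.2 FPKM in sHA-X against 12.3, 10.8 and 12.9 FPKM in PBS. The Pfkl groups were apart, with a log2 change of 0.24 (limma adjusted p = 0.0794, and 0.025 to 0.261 over the alternatives). Pfkm, the muscle form, overlapped at 10.6, 10.7, 9.58 and 9.04 FPKM in sHA-X and 8.51, 11.8 and 5.55 FPKM in PBS, again with PBS replicate 3 lowest. Pfkp, the platelet form, overlapped as well (12.4 to 16.4 FPKM in sHA-X, 12.2 to 14.5 FPKM in PBS, limma adjusted p = 0.453).

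Aldoa, the main aldolase, and Tpi1, which interconverts the triose phosphates that aldolase makes, were both higher in sHA-X spleens. Aldoa stood at 146, 162, 136 and 138 FPKM in sHA-X and at 99.8, 102 and 120.0 FPKM in PBS. The groups did not overlap (145 ± 12.0 and 107 ± 11.03 FPKM, SD, n = 4 and 3, log2 change 0.44, SE 0.09, limma adjusted p = 0.0152). Its highest value was in sHA-X replicate 2, the library with skeletal muscle transcripts, and without that library the adjusted p was 0.0354 and the log2 change 0.38. Without PBS replicate 1 the adjusted p was 0.0721, and it ran from 0.00163 to 0.108 over the alternatives. Tpi1 had 109.6, 119, 109 and 123 FPKM in sHA-X and 77.7, 86.5 and 82.8 FPKM in PBS. Every sHA-X library was above every PBS library (115 ± 7.19 and 82.4 ± 4.40 FPKM, SD, n = 4 and 3, log2 change 0.48, SE 0.07, limma adjusted p = 0.00361), and the call held in all 19 alternatives (adjusted p up to 0.0412). Aldoc, the brain form, was near 1 FPKM in both groups and overlapped.

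**Figure D2:**
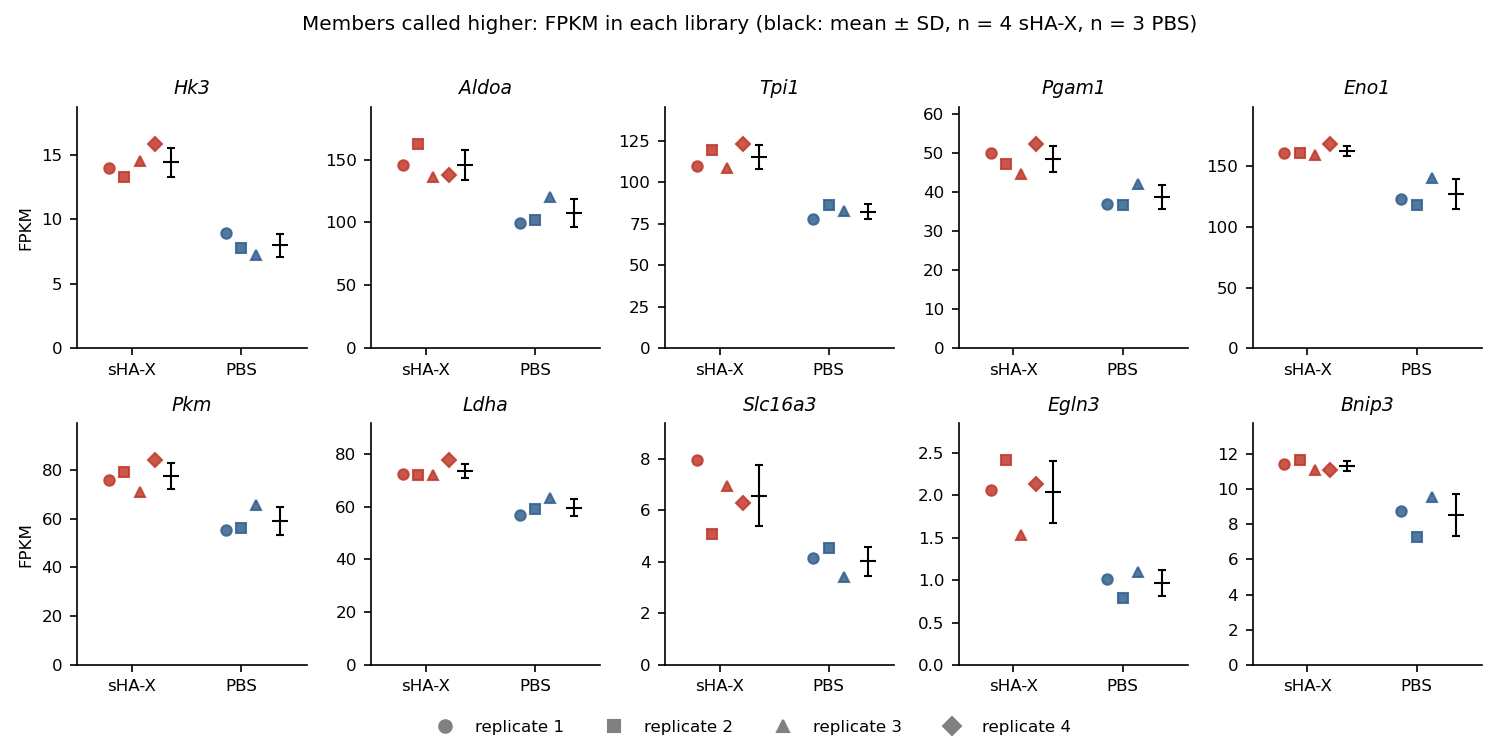
FPKM in every library for the 10 members called higher in sHA-X, each panel with sHA-X points left of PBS points, a shape for each replicate and the mean ± SD of each group in black (n = 4 and 3). In every panel the lowest sHA-X point lies above the highest PBS point, for Hk3 13.2 against 8.92 FPKM and for Ldha 72.1 against 63.2 FPKM.

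Among the enzymes of the later steps, where ATP is regained, Gapdh and Pgk1 missed the threshold. Gapdh was at 44.0, 52.5, 48.0 and 60.6 FPKM in sHA-X and 41.1, 39.0 and 43.5 FPKM in PBS. Pgk1, the first ATP-forming enzyme, was at 94.2, 109.8, 95.3 and 117 FPKM in sHA-X and 83.7, 80.2 and 89.0 FPKM in PBS. Neither gene's groups overlapped, and both had a log2 change of 0.30 (limma adjusted p = 0.091 for Gapdh and 0.0581 for Pgk1). Pgk1 was called with libraries scaled to an equal FPKM sum (0.0493) and with array quality weights (0.0248), and its adjusted p reached 0.258 elsewhere.

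Pgam1, the phosphoglycerate mutase, and Eno1, the enolase of most tissues, were called. Pgam1 stood at 50.0, 47.2, 44.7 and 52.5 FPKM in sHA-X and at 37.1, 36.8 and 42.3 FPKM in PBS. The groups did not overlap (48.6 ± 3.38 and 38.7 ± 3.06 FPKM, SD, n = 4 and 3, log2 change 0.32, SE 0.08, limma adjusted p = 0.0269), but Pgam1 kept its call in only 11 of 19 alternatives (0.00411 to 0.196). Leaving out sHA-X replicate 1, 2 or 4 gave an adjusted p of 0.0686, 0.0534 or 0.0636, and leaving out PBS replicate 1 or 2 gave 0.111 or 0.0799. Eno1 had the highest mean FPKM of the members, although Aldoa was above it in sHA-X replicate 2, and stood at 161, 160.2, 159 and 168 FPKM in sHA-X and 123, 118 and 140.5 FPKM in PBS. The sHA-X libraries lay close together above a wider PBS group (162 ± 4.17 and 127 ± 12.0 FPKM, SD, n = 4 and 3, log2 change 0.35, SE 0.07, limma adjusted p = 0.0141, 0.0679 without PBS replicate 1, and 0.00121 to 0.114 over the alternatives). The near-identical copy Eno1b had at most 2.92 FPKM, and how reads common to both were assigned is not known here. Eno3, the muscle form, overlapped at 6.99 to 9.55 FPKM in sHA-X and 7.44 to 9.45 FPKM in PBS. Eno2, the neuronal form, was the 1 member below the filter, with 0.603 to 1.09 FPKM in sHA-X and 0.361 to 0.685 FPKM in PBS.

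Pkm makes pyruvate, and Ldha turns it into lactate. Pkm had 75.7, 79.0, 70.9 and 83.8 FPKM in sHA-X and 55.2, 56.0 and 65.4 FPKM in PBS. Its groups were apart (77.4 ± 5.47 and 58.9 ± 5.70 FPKM, SD, n = 4 and 3, log2 change 0.39, SE 0.08, limma adjusted p = 0.0174), though without PBS replicate 1 the adjusted p was 0.0816 and without PBS replicate 2 it was 0.0546 (0.00204 to 0.145 over the alternatives). Ldha had 72.3, 72.1, 72.2 and 77.6 FPKM in sHA-X and 56.7, 59.1 and 63.2 FPKM in PBS. The 3 lower sHA-X values were nearly equal and all were above PBS (73.5 ± 2.70 and 59.7 ± 3.29 FPKM, SD, n = 4 and 3, log2 change 0.30, SE 0.06, limma adjusted p = 0.0139, 0.069 without PBS replicate 1, and 0.00177 to 0.129 over the alternatives). Ldhb, the form that favours lactate use, overlapped at 3.19, 5.17, 3.35 and 4.54 FPKM in sHA-X and 3.91, 3.77 and 5.20 FPKM in PBS.

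Added up, the 19 glycolytic enzymes came to 937 to 1015 FPKM in sHA-X and 752 to 833 FPKM in PBS. Of the 18 tested, 7 were called higher and 0 lower, with a median log2 change of 0.28, while of the 14 other members 3 were called higher, with a median of 0.16. Without PBS replicate 1, 2 enzymes stayed called. Several of these genes, Gapdh, Tpi1, Pgam1, Pkm and Ldha among them, have many processed pseudogenes in the mouse, and the sources used here do not say how reads shared with such copies were assigned, which leaves their absolute levels uncertain. Hk3 rests on 840 to 2046 reads per library.

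If the values are scaled to gene length, as inferred, the forms of a family among the 33 genes can be set side by side as shares of their own sum. Such shares depend on the length used for each gene, which is not known here, and on how reads shared with pseudogenes were assigned. In recovered reads, Ldha had 9744 to 15456 per library and Ldhb 133 to 227. Family members outside the 33 are not counted in these sums. Hk3 made up 28.8 ± 2.49% of the FPKM of Hk1, Hk2 and Hk3 in sHA-X (27.0 to 32.4%) and 21.3 ± 3.32% in PBS (17.8 to 24.4%), and Hk1 63.5 ± 4.02% and 70.4 ± 5.35%. The Hk3 ranges were apart and the Hk1 ranges overlapped, and Hk1 remained the main form in every library. Aldoa held 99.2% of the FPKM of Aldoa and Aldoc in sHA-X and 99.0% in PBS, and Eno1 94.6% and 93.5% of that of Eno1, Eno2 and Eno3. Ldhb held 5.22 ± 1.14% of the FPKM of Ldha and Ldhb in sHA-X and 6.68 ± 0.832% in PBS, overlapping, and the phosphofructokinase shares overlapped for all 3 forms. Slc16a3 held 13.9 ± 1.26% of the FPKM of Slc16a1 and Slc16a3 in sHA-X (12.6 to 15.1%) and 7.13 ± 1.20% in PBS (6.35 to 8.51%), a sum that leaves out Slc16a6 (14.5 ± 0.974 FPKM in sHA-X and 14.5 ± 2.38 FPKM in PBS) and Slc16a7. These shares carry no test (SD, n = 4 and 3).

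**Figure D3:**
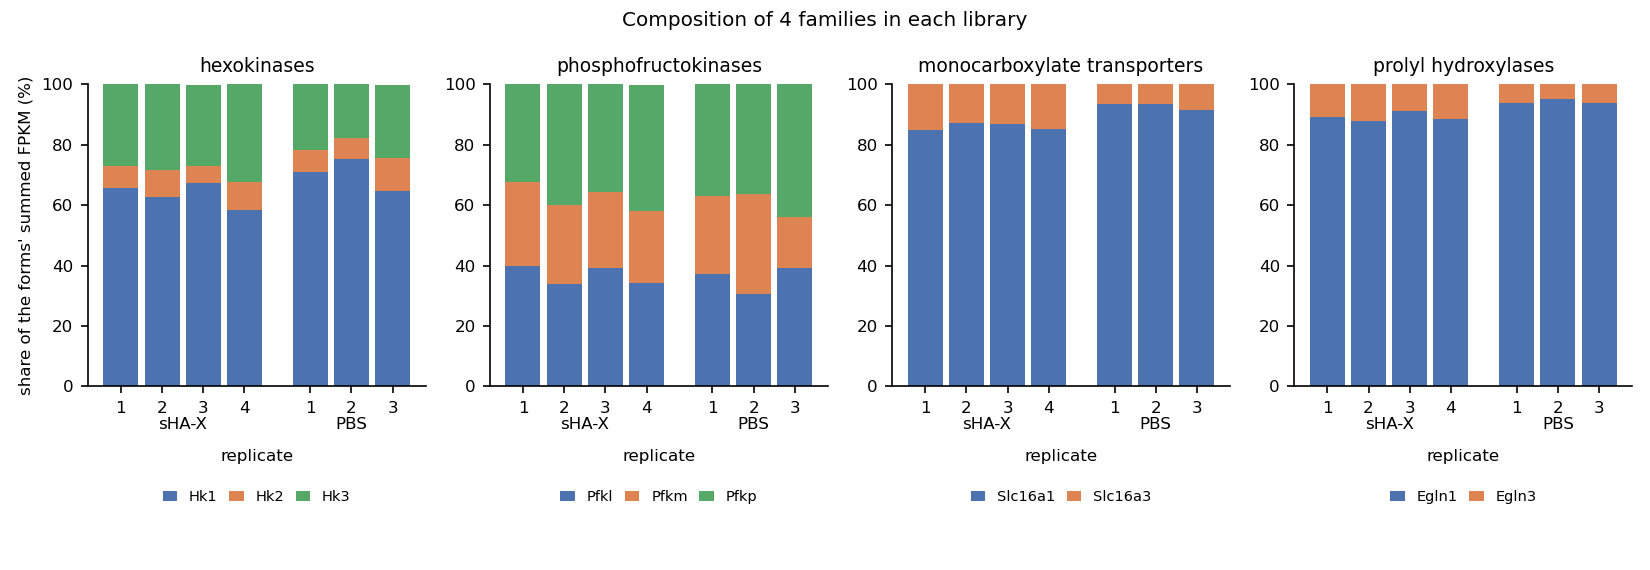
Percent of the summed FPKM of the forms shown (Hk1 to Hk3, Pfkl, Pfkm and Pfkp, Slc16a1 and Slc16a3, Egln1 and Egln3) held by each, as stacked bars with 1 bar a library and sHA-X libraries left of PBS libraries. Slc16a3 and Hk3 take a larger share in each of the 4 sHA-X libraries (at least 12.6% and 27.0%) than in any PBS library (at most 8.51% and 24.4%), while the phosphofructokinase bars overlap.

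Among the transporters, only Slc16a3 was called. Slc16a3 is the low-affinity monocarboxylate carrier that exports lactate from strongly glycolytic cells. It stood at 7.95, 5.10, 6.96 and 6.30 FPKM in sHA-X and 4.14, 4.53 and 3.42 FPKM in PBS. The groups were apart by a narrow margin between 5.10 and 4.53 FPKM (6.58 ± 1.19 and 4.03 ± 0.564 FPKM, SD, n = 4 and 3, log2 change 0.58, SE 0.14, 95% interval 0.28 to 0.89, limma adjusted p = 0.0247), and the call held in 13 of 19 alternatives (0.00888 to 0.137). Leaving out sHA-X replicate 1, 3 or 4 gave an adjusted p of 0.0531, 0.062 or 0.0568, and leaving out PBS replicate 1 or 3 gave 0.0818 or 0.0542. The glucose carriers showed no such difference. Slc2a1 had 16.6, 15.7, 15.01 and 15.3 FPKM in sHA-X and 16.8, 15.3 and 17.9 FPKM in PBS, and the interval of its log2 change ran from -0.24 to 0.07. Slc2a3, the high-affinity carrier of leukocytes and neurons, had 10.8, 10.8, 10.8 and 11.02 FPKM in sHA-X and 10.5, 10.8 and 11.8 FPKM in PBS (interval -0.16 to 0.11). Both overlapped.

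Slc16a1, the most abundant of the 4 transporters and a carrier found in red cell precursors, followed another pattern. It stood at 44.5, 35.4, 46.3 and 36.2 FPKM in sHA-X and 61.0, 64.8 and 36.7 FPKM in PBS. PBS replicate 3 lay among the sHA-X libraries and the other 2 PBS libraries far above them (40.6 ± 5.62 and 54.2 ± 15.2 FPKM, SD, n = 4 and 3, log2 change -0.38, interval -0.88 to 0.13, limma adjusted p = 0.296). Without PBS replicate 3 it was called lower, with a log2 change of -0.63 and an adjusted p of 0.014, and over all alternatives the adjusted p reached 0.713. The 8 erythroid markers summed to 2003, 1173, 2180 and 1285 FPKM in sHA-X and 2730, 3287 and 781 FPKM in PBS. Within each group Slc16a1 ranked the libraries in the order of that sum, the 1 member to do so in both groups, and Egln3 ranked them in reverse. The part of red cell precursors in the Slc16a1 values was not tested.

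**Figure D4:**
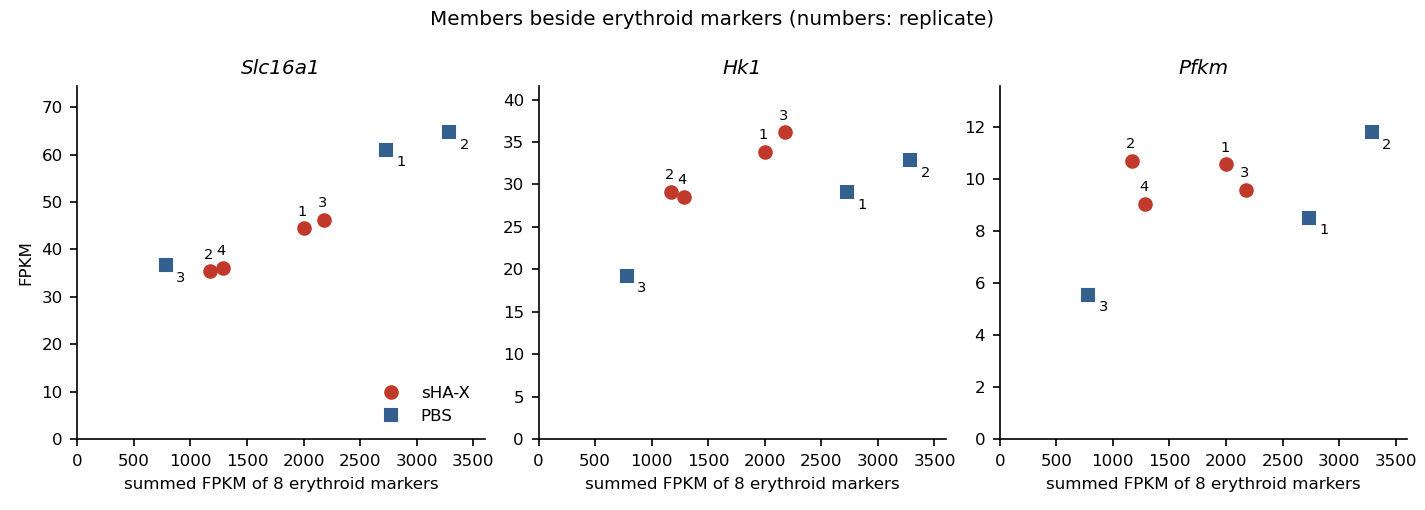
FPKM of Slc16a1, Hk1 and Pfkm (y axes) against the summed FPKM of 8 erythroid markers (x axis) in each of the 7 libraries, sHA-X as circles and PBS as squares, numbered by replicate. Slc16a1 climbs with the erythroid sum within both groups, and PBS replicate 3, with the lowest sum of 781 FPKM, has 36.7 FPKM of Slc16a1 beside 61.0 and 64.8 in the other PBS libraries. It is also the lowest library for Hk1 (19.3 FPKM) and Pfkm (5.55 FPKM).

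None of the 3 flux regulators passed. Pfkfb3, the most abundant of them and a kinase that makes the sugar phosphate activating phosphofructokinase, was at 17.4, 17.8, 18.7 and 19.3 FPKM in sHA-X and 18.3, 17.8 and 19.9 FPKM in PBS. These values overlapped throughout, and the log2 change of -0.03 had an interval of -0.17 to 0.11. Pfkfb4, a related form, was at 5.79, 5.31, 4.89 and 5.06 FPKM in sHA-X and 4.29, 4.52 and 4.36 FPKM in PBS. Its groups were apart but the test was not passed (log2 change 0.21, limma adjusted p = 0.0837, and 0.0301 to 0.277 over the alternatives). Pdk1, the Hif1a-driven kinase that holds back pyruvate dehydrogenase, overlapped at 9.89 to 12.2 FPKM in sHA-X and 10.8 to 12.8 FPKM in PBS (limma adjusted p = 0.784).

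Of the 7 other hypoxia response genes, Egln3 and Bnip3 were higher in sHA-X and 5 did not pass. Egln3, the prolyl hydroxylase whose gene Hif1a itself induces, had 2.06, 2.41, 1.54 and 2.14 FPKM in sHA-X and 1.01, 0.794 and 1.10 FPKM in PBS. All sHA-X values were above all PBS values (2.04 ± 0.366 and 0.968 ± 0.157 FPKM, SD, n = 4 and 3, log2 change 0.62, SE 0.12, limma adjusted p = 0.0107). The ratio of means of 2.10 was the highest of the called members, but Egln3 rests on 78 to 245 reads per library, and with a PBS mean under 1 FPKM it entered the test through its sHA-X values. Its call held in 16 of 18 alternatives (0.00446 to 0.123). Bnip3, a mitochondrial outer membrane protein that promotes mitophagy, had 11.4, 11.6, 11.1 and 11.1 FPKM in sHA-X and 8.76, 7.25 and 9.56 FPKM in PBS. The sHA-X libraries were close to one another and all above PBS (11.3 ± 0.270 and 8.53 ± 1.17 FPKM, SD, n = 4 and 3, log2 change 0.38, SE 0.09, limma adjusted p = 0.023), with the call held in 13 of 19 alternatives (0.00485 to 0.137). It was lost without sHA-X replicate 1, 2 or 4 (0.0573, 0.0561 and 0.0517) and without PBS replicate 1 (0.0714).

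Hif1a, the oxygen-regulated subunit itself and the most abundant of the 7, had 36.2, 41.8, 36.4 and 44.7 FPKM in sHA-X and 32.6, 31.1 and 35.9 FPKM in PBS. The groups were apart by 36.2 against 35.9 FPKM, and the log2 change of 0.25 did not pass (limma adjusted p = 0.0988, and 0.0387 to 0.369 over the alternatives). Hif1a is regulated mainly by protein stability, which these RNA levels do not measure. Egln1, the main oxygen sensor, overlapped at 16.3 to 17.7 FPKM in sHA-X and 15.2 to 16.5 FPKM in PBS. Beside it, Egln3 made up 10.7 ± 1.46% of the FPKM of Egln1 and Egln3 in sHA-X (8.63 to 12.0%) and 5.78 ± 0.715% in PBS (4.96 to 6.26%), with Egln2 not counted. P4ha1, a collagen prolyl hydroxylase, had 22.7, 22.0, 20.9 and 15.98 FPKM in sHA-X and 15.4, 13.4 and 16.9 FPKM in PBS. Only sHA-X replicate 4 lay within the PBS range (log2 change 0.39, limma adjusted p = 0.0763), and without it the adjusted p was 0.017, in a span of 0.0167 to 0.327 over the alternatives. The stress-induced Ndrg1 (22.0 to 26.2 FPKM in sHA-X, 21.6 to 27.1 FPKM in PBS) and the Hif1a target Ankrd37 (2.43 to 3.89 FPKM and 2.40 to 2.95 FPKM) overlapped.

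The transplanted cells are hepatocytes, which use their own forms of several enzymes. Pklr, the pyruvate kinase of liver and red cells, was at 20.9, 15.7, 21.9 and 14.1 FPKM in sHA-X and 12.9, 17.2 and 5.94 FPKM in PBS. The groups overlapped, and Pklr did not pass (limma adjusted p = 0.295). Its 21.9 and 14.1 FPKM in sHA-X replicates 3 and 4, the libraries with high hepatocyte markers, lay on either side of the 20.9 and 15.7 FPKM in replicates 1 and 2. Pklr was lowest in PBS replicate 3, the library with the lowest erythroid marker sum (781 FPKM). What Pklr owes to either cell type was not tested. The 19 glycolytic enzymes, called or not, summed to 961 and 1009 FPKM in sHA-X replicates 1 and 2, where hepatocyte markers summed to 4.10 and 21.2 FPKM. In sHA-X replicates 3 and 4, with 669 and 686 FPKM of those markers, the enzymes summed to 937 and 1015 FPKM. The part of hepatocytes in the enzyme levels was not tested.

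Other genes of the same and neighbouring pathways were read from 7 lists, also chosen with earlier results of these data known. Of 100 genes tested in these lists, 18 were called higher and 2 lower in sHA-X, beside 9.3% and 5.03% of all genes tested. The counts of 1 of 11, 1 of 10 and 2 of 19 genes higher lie near that background. Further glycolytic isoforms and transporters gave 1 of 11, Slc2a8, an intracellular sugar carrier, at 5.14, 4.28, 4.59 and 4.63 FPKM in sHA-X and 3.202, 3.07 and 3.04 FPKM in PBS (limma adjusted p = 0.00573). Liver forms and gluconeogenesis gave 1 of 10, Ppp1r3b, a glycogen-targeting phosphatase subunit (log2 change 0.40, limma adjusted p = 0.0406). Slc2a4, the insulin-regulated carrier, spanned 1.93 to 2.98 FPKM in sHA-X and 0.814 to 4.63 FPKM in PBS, with the lowest value in PBS replicate 3. The 3 called genes of the pentose phosphate pathway that rose all make NADPH. G6pdx, its first enzyme, had 41.3, 42.7, 39.2 and 43.3 FPKM in sHA-X and 31.8, 28.5 and 29.6 FPKM in PBS, with no overlap (log2 change 0.46, limma adjusted p = 0.00274), H6pd, its counterpart in the endoplasmic reticulum, had a log2 change of 0.44 (0.00596) and Pgd one of 0.27 (0.048). Prps2, which makes the activated ribose for nucleotides, was lower (-0.29, 0.0182). Pyruvate dehydrogenase gave 2 of 12 higher (Dlat and Pdhx, subunits of the complex) and the citrate cycle 2 of 19 (Aco1 and Idh3a), with median log2 changes of 0.08 and 0.13. Of the genes named in this paragraph, Slc2a8, G6pdx and H6pd stayed called with any 1 library left out, and the other called genes did not, with adjusted p without PBS replicate 1 of 0.154 for Ppp1r3b, 0.117 for Pgd, 0.063 for Prps2, 0.0685 for Dlat, 0.109 for Pdhx, 0.106 for Aco1 and 0.0834 for Idh3a.

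**Figure D5:**
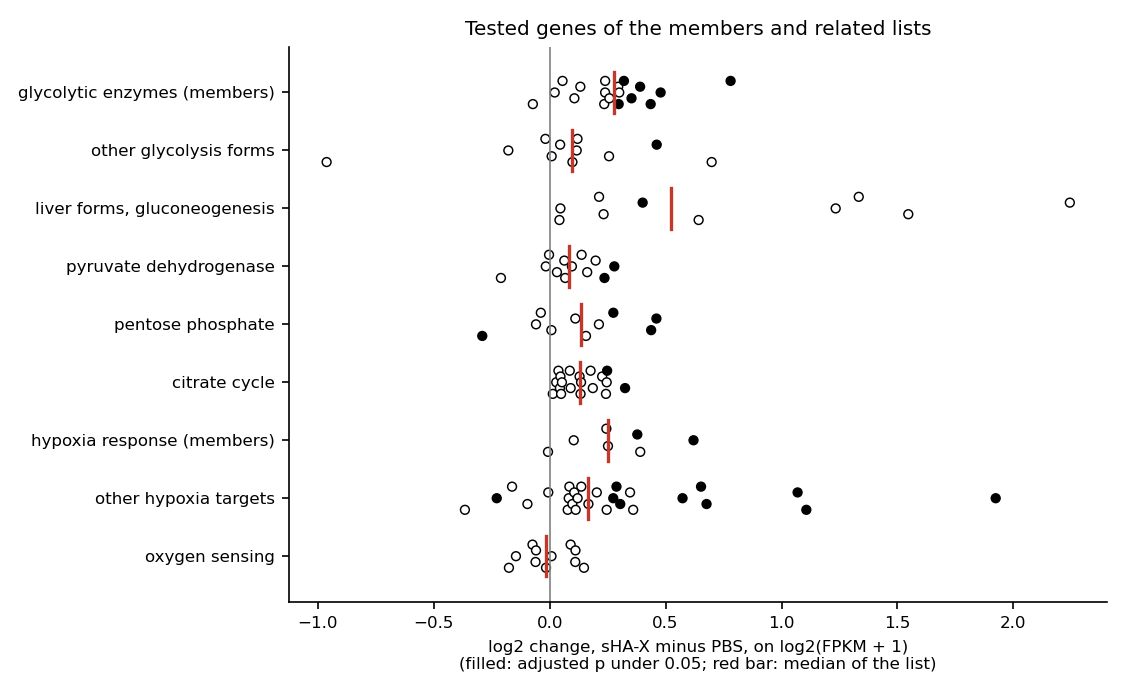
Log2 change (sHA-X minus PBS) of each tested gene among the glycolytic enzymes, the 7 hypoxia response members and 7 related pathway lists, with filled points for called genes, a red bar at each list's median and a line at 0. The glycolytic enzymes have a median of 0.28 and the oxygen sensing genes one of -0.02, and Bpgm is the point farthest left, at -0.96.

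Among 27 tested hypoxia targets outside the members, 9 were higher and 1 was lower, with a median log2 change of 0.17. The 4 with the smallest p were Anxa2, a membrane-binding annexin (105 ± 4.95 FPKM in sHA-X and 66.8 ± 4.76 FPKM in PBS, limma adjusted p = 0.000966), Ier3, an early response gene (7.23 ± 1.36 and 2.89 ± 0.265 FPKM, 0.00177), Hmox1, which breaks down haem (589 ± 30.4 and 277 ± 63.0 FPKM, 0.00178), and Mif, a cytokine (121 ± 3.93 and 99.3 ± 3.99 FPKM, 0.0123), each with n = 4 and 3. Anxa2, Ier3 and Hmox1 stayed called with any 1 library left out, and Mif had an adjusted p of 0.0623 without PBS replicate 1. Hmox1 is also among the red pulp macrophage markers. Also called higher were the collagen-modifying P4ha2 and Plod1, the repressor Bhlhe40 and the mitochondrial Fam162a, and each of these lost its call in at least 1 of the fits with a library left out. The demethylase gene Kdm3a was lower, at 14.0, 14.1, 13.8 and 14.9 FPKM in sHA-X against 17.0, 16.8 and 16.6 FPKM in PBS (log2 change -0.23, limma adjusted p = 0.0232, and 0.0966 without PBS replicate 1). Vegfa, the endothelial growth factor induced by Hif1a in most cells, had 9.99, 10.3, 10.03 and 10.1 FPKM in sHA-X and 11.8, 10.97 and 11.5 FPKM in PBS. Its sHA-X values were all below PBS, but the log2 change of -0.16 did not pass (limma adjusted p = 0.0785). It was called lower with median-of-ratios scaling (0.0357), quantile normalization (0.0445) and array quality weights (0.0201), and its adjusted p ran up to 0.332 over the other alternatives. The 11 oxygen sensing genes tested, which include Vhl, Arnt and the Hif1a relative Epas1 (22.6 ± 1.76 and 23.8 ± 3.61 FPKM, SD, n = 4 and 3, limma adjusted p = 0.753), gave 0 calls and a median log2 change of -0.02.

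Bpgm makes the red cell metabolite that loosens haemoglobin's hold on oxygen, and it had the largest log2 change, in size, of the 11 further glycolytic isoforms tested. It stood at 176, 150.1, 201 and 186 FPKM in sHA-X and 487, 385 and 221 FPKM in PBS. The groups were apart, with PBS replicate 3 nearest to sHA-X, but the log2 change of -0.96 did not pass (limma adjusted p = 0.0644). Bpgm was called lower in 3 of 19 alternatives: without robust variance, with array quality weights and without PBS replicate 3. Its limma adjusted p was lowest without PBS replicate 3, at 0.00245, and reached 0.285 over the alternatives. The full values of Hk1, Pfkm, P4ha1, Ldhb, Slc2a1, Slc2a3, Kdm3a and Bpgm were chosen after they had been seen.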

How the data were processed

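Total RNA of 7 spleen samples was extracted with TRIzol and made into libraries with the VAHTS Universal V6 kit, per the labels' protocols. The sources used here do not give strandedness. Listed in the submitters' processing notes, without roles, are the mm10 build, R 3.2.0, HTSeq, HISAT2, fastp and DESeq2. The FPKM values were used as deposited by the authors, in 1 table of all libraries whose header names neither a unit nor a step. The unit was inferred. Each of the 16889 genes above 0 in 2 or more libraries could be written in whole steps of 1 read (tolerance 0.01 read with 4 or more libraries, 0.05 with fewer). For genes above 0 in few libraries such a fit is nearly always found, so it tests little there. Whole steps also do not by themselves show scaling to gene length. The recovered reads sum to 29543963 to 37141739 per library.

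From the FPKM, log2(FPKM + 1) was tested with limma 3.58.1 in R 4.3.3 (trend and robust variance, group only, two-sided, Benjamini-Hochberg over all genes tested). Genes needed a mean of at least 1 FPKM over the 7 libraries, which kept 11920 and left out 10253; calls are at an adjusted p under 0.05. Fold changes on the log2(FPKM + 1) scale understate those of low genes. On simulated data for this comparison over 11920 genes, 16% of genes changed 1.25-fold, 78% changed 1.5-fold and 92% changed 2-fold were recovered. The simulation changed 50 genes at each size, on the log2(FPKM + 1) scale and with independent noise. It gave 149 calls, against 1708 in the data, so these shares may not hold for the real test. Alternatives were pseudocounts of 0.1 and 0.5, no filter or a mean of at least 5 FPKM, 3 other scalings, variance models, array weights, left-out libraries and a replicate block. The members and all lists were chosen with earlier results of these data known. Full values were given for members called, the most abundant member of each role and the 4 members with the smallest p among those not called whose groups did not overlap; in other lists, for up to 4 called genes and Pklr, Vegfa, Epas1 and Slc2a4. Some genes of these lists are not reported here. Gene and promoter annotation came from RefSeq on GRCm38.p6, the same coordinates as mm10.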

Additional observations from a re-analysis of the deposited data

Results flagged for a closer look

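Of 51 values looked at for a library standing apart within the sHA-X group, 2 stood out, and chance alone gives about 1 in 20. Ldha was at 77.6 FPKM in sHA-X replicate 4, with the other 3 sHA-X libraries between 72.1 and 72.3 FPKM. The skeletal muscle marker sum was 236 FPKM in sHA-X replicate 2, with the other sHA-X libraries between 8.60 and 11.1 FPKM.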

How the results depend on the processing

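Over all genes, the 1108 higher calls became 1959 with array quality weights, 492 without both second libraries and 304 with the replicate block, and 488 to 1263 when 1 library was left out. The 600 lower calls became 938 with quantile normalization, 1118 with array quality weights, 330 without both second libraries and 86 with the block, and 228 to 637 with 1 library left out. The 10 members called higher became 15 with array quality weights (with Pfkl, Pgk1, Pfkfb4, Hif1a and P4ha1 added), 3 without both second libraries, 2 with the replicate block (Hk3 and Tpi1) and 3 to 9 with 1 library left out, and the 0 called lower became 1 with array quality weights and 0 to 1 with 1 library left out (Slc16a1 in both). The 7 glycolytic enzymes became 2 without both second libraries, 2 with the block and 2 to 7 with 1 library left out, and the 3 other members 6 with array weights, 1 without both second libraries, 0 with the block and 1 to 3 with 1 left out. In the other lists, 18 higher calls became 34 with array weights, 10 without both second libraries, 4 with the block and 7 to 16 with 1 left out, and 2 lower calls became 1 with libraries scaled to an equal sum, 7 with array weights, 0 without both second libraries, 0 with the block and 0 to 5 with 1 left out. The array weights were 3.026 for PBS replicate 1 and 0.709 and 0.359 for PBS replicates 2 and 3. The PBS side of that fit therefore rests mostly on 1 library. The cause of the changes in these counts was not tested. The differences in the Hk3, Slc16a3 and Ldhb shares kept their sign with each library left out.

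None of the genes that changed sign was called with all 7 libraries as deposited. Their log2 changes were -0.0074 for Gpi1 with quantile normalization and -0.0039 without both second libraries, -0.0303 for Aldoc with quantile normalization, -0.0059, -0.0245 and -0.0594 for Eno3 with median-of-ratios scaling, quantile normalization and without both second libraries, 0.0087 and 0.0182 for Slc2a3 with an equal sum and array weights, 0.0055 for Pfkfb3 with an equal sum, 0.0092 for Pdk1 with array weights, and 0.0271, 0.0007 and 0.0026 for Ndrg1 with an equal sum, array weights and the block. Slc2a4 had 0.0736 and 0.0161 with pseudocounts of 0.1 and 0.5, 0.0502 with an equal sum, 0.3237 without both second libraries and 0.0726 with the block. With 1 library left out, the ranges were -0.0116 to 0.4716 for Pfkm, -0.0429 to 0.111 for Eno3, -0.1738 to 0.0471 for Ldhb, -0.0556 to 0.0213 for Slc2a3, -0.059 to 0.0163 for Pfkfb3, -0.0857 to 0.0301 for Pdk1, -0.0882 to 0.071 for Ndrg1, -0.1752 to 0.0372 for Epas1 and -0.5105 to 0.3066 for Slc2a4.

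Deviations of same-numbered libraries correlated at 0.15, -0.214 and -0.286, and those of other pairs across the groups at -0.179 to 0.245. These values show no pairing by replicate number, but with so few libraries they cannot exclude it. The block fit left out sHA-X replicate 4, which has no PBS partner. For every member called higher, the block fit gave the highest adjusted p of the range over the alternatives. Those upper ends therefore rest on a pairing that these correlations do not show. With 7 libraries, the smallest changes simulated were mostly missed by the test, so a member that did not pass may still differ. Egln3, Aldoc and Eno2 rest on the fewest reads, down to 78, 82 and 38 in 1 library.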
